A study of Mus musculus with 12 samples.

Results

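Cxcl1 and Lbp are genes for inflammatory proteins that cells secrete, and both were followed here in the renal medulla of water-restricted and control mice. Each gene was represented by 1 clone printed as 2 adjacent spots, so the members were 2 of 15600 clones and 2 of the 6786 genes that carried a single symbol in the platform annotation (Entrez gene 14825 for Cxcl1 and 16803 for Lbp). Both were picked with their values on these 12 arrays known, so their differences and levels are given as a description, without a test.

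The study was about the response to water restriction of the renal medulla, the inner kidney where urine is concentrated. Amplified RNA from the medulla of 3 water-restricted mice was hybridised on 2-colour arrays with RNA from the medulla of 3 control mice, in all 9 pairings. Both dye orientations were made for 3 pairings, those of water-restricted mice 1, 2 and 3 with control mice 3, 1 and 2 in that order, giving 12 arrays, 6 of each orientation. The sources used here do not give strain, sex, age or the length of restriction, and the mouse is the replicate.

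Cxcl1 encodes a CXC chemokine, known in the mouse also as KC, which attracts neutrophils through the receptor Cxcr2 and is induced through NF-kappaB by interleukin 1, TNF and bacterial lipopolysaccharide. Tubule cells of an injured kidney are a known source of it. Lbp encodes the lipopolysaccharide-binding protein, an acute phase protein made mainly by the liver, which hands lipopolysaccharide to Cd14 and so to Tlr4 and Ly96. Signalling from that receptor through Myd88 and NF-kappaB is among the routes that switch on Cxcl1.

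The start of Cxcl1 is shown because NF-kappaB, the factor that links the Lbp and Cxcl1 pathways, is known to act there. The window, from RefSeq on build GRCm38.p6, is chr5:90890995-90891294 on the plus strand and runs from 250 bases before the gene's start to 50 after it. Capitals mark matches to the NF-kappaB consensus, searched on both strands.
Cxcl1 promoter: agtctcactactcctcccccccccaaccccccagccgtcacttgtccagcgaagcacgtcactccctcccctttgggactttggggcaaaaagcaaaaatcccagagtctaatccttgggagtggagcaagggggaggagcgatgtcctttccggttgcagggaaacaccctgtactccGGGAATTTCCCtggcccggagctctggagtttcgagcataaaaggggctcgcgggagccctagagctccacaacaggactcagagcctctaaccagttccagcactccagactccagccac
The consensus matched at 2 overlapping places, 1 per strand, which together cover 11 bases starting 71 bases before the gene's start. A match was found in 5.14% of the 27025 genes with a window of this length. Whether the factor acts at this stretch was not measured on the arrays.

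Each array gave a log2 ratio of its 2 dyes, and the sign was turned wherever Alexa Fluor 647 marked the water-restricted mouse, so that every value runs as if that mouse had Alexa Fluor 546. The sources used here do not name the numerator dye. With Alexa Fluor 546 as numerator, a positive value stands for more transcript after water restriction, and with Alexa Fluor 647 it stands for less, so no direction is claimed below. For both genes the deposited sign changed with the dye in all 3 swapped pairs. Water-restricted mouse 1 with control mouse 3 had a deposited Cxcl1 ratio of 0.86 when Alexa Fluor 546 marked the water-restricted mouse and -0.61 after the swap, and for Lbp the values were -2.64 and 3.29. Over all clones this was weak. The deposited values of the 3 swapped pairs correlated at -0.14, 0.13 and -0.13 across clones, which are not independent replicates, and the 0.13 of water-restricted mouse 2 with control mouse 1 goes against turning. In that pair Cxcl1 still had turned ratios of 2.44 and 1.99, and Lbp of -0.08 and -0.14. The array of water-restricted mouse 2 with control mouse 2 stood apart in noise, with an SD of 1.21 over its spots against 0.515 to 0.764 on the other 11, and results are given with and without it.

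Cxcl1 was on the positive side on 12 of 12 arrays, as were 1.46% of all genes, and its size went with the control mouse. Against control mouse 1 the turned log2 ratio was 1.90 for water-restricted mouse 1, 2.44 and 1.99 for mouse 2 in both orientations, and 1.97 for mouse 3. Against control mouse 2 it was 2.70 for water-restricted mouse 1, 0.53 for mouse 2 and 2.05 and 1.87 for mouse 3. Against control mouse 3 it was 0.86 and 0.61 for water-restricted mouse 1, 0.92 for mouse 2 and 0.53 for mouse 3. The 4 arrays with control mouse 3 were thus all lower than the 4 with control mouse 1, and lower than 3 of the 4 with control mouse 2. The exception, at 0.53, was the noisy array. Among all clones of an array, 0.0513% to 0.603% had a higher ratio than Cxcl1 on the 7 other arrays with control mice 1 and 2, 24.2% did on the noisy array, and 2.49% to 10.3% did on those with control mouse 3. The 2 spots of the Cxcl1 clone lay close together, with a median gap of 0.16 and a largest of 0.81, where the median gap over all clones was 0.31.

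**Figure D1:**
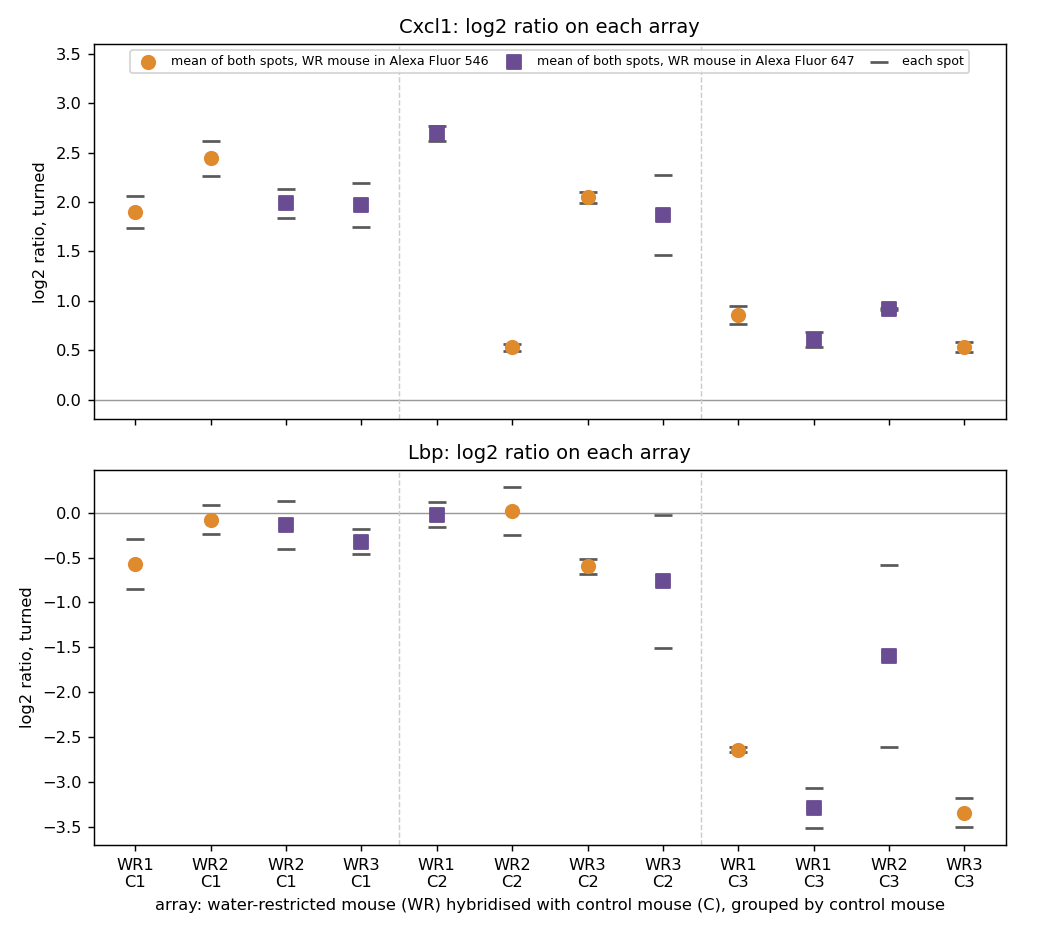
Turned log2 ratio of Cxcl1 (top) and Lbp (bottom) on each of the 12 arrays, grouped by control mouse, with circles and squares for the mean of both spots in each dye orientation and dashes for each spot. Cxcl1 is positive on every array and reads 0.53 to 0.92 on the 4 with control mouse 3. These 4 lie below the other 8 except the noisy array of water-restricted mouse 2 with control mouse 2 (0.53). As means of both spots, Lbp reaches -3.34 with control mouse 3 and stays between -0.76 and 0.02 on the other 8 arrays.

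Fitted to a level for each mouse, Cxcl1 separated the groups. In bulk tissue, fewer cells of a type and less RNA per cell cannot be told apart. The levels, which sum to 0 over the 6 mice on the log2 scale, were 1.03, 0.47 and 0.74 in water-restricted mice 1, 2 and 3, and -1.28, -0.98 and 0.02 in control mice 1, 2 and 3. The groups did not overlap, as in 9.8% of all genes on either side and 5.94% on the side of Cxcl1, and the control mice spread more widely than the water-restricted mice. The group means were 0.75 ± 0.28 in water-restricted and -0.75 ± 0.68 in control mice (SD, n = 3 each). The log2 difference was 1.49 (SE 0.32), a 2.82-fold ratio, and 3 of the 6786 genes had a larger absolute difference. One sign on all 12 arrays, of either kind, was found in 2.05% of genes. No reading is taken from these shares, since the same contrast chose the gene.

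Within the control group Cxcl1 was uneven. Each mouse level had a technical SE of 0.22 from the spread between arrays. On the turned scale, from top to bottom, the order was water-restricted mice 1, 3 and 2, then control mice 3, 2 and 1. The gap of 1.00 between control mice 3 and 2 (SE 0.36) was the widest step between neighbours. These steps are a description and no test, since the levels were known when the gene was picked. Control mouse 3 lay 0.45 below water-restricted mouse 2 (SE 0.33), so the gap between the nearest mice of both groups was not much wider than its technical SE. The noisy array weighed on this order. Without it, water-restricted mice 1, 2 and 3 had levels of 0.91, 1.04 and 0.63 and control mice 1, 2 and 3 had -1.17, -1.55 and 0.13, the difference was 1.72 (SE 0.38), and control mice 1 and 2 changed places. Without control mouse 3 the difference was 1.88 (SE 0.27), and without both that mouse and the noisy array it was 2.21 (SE 0.22).

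**Figure D2:**
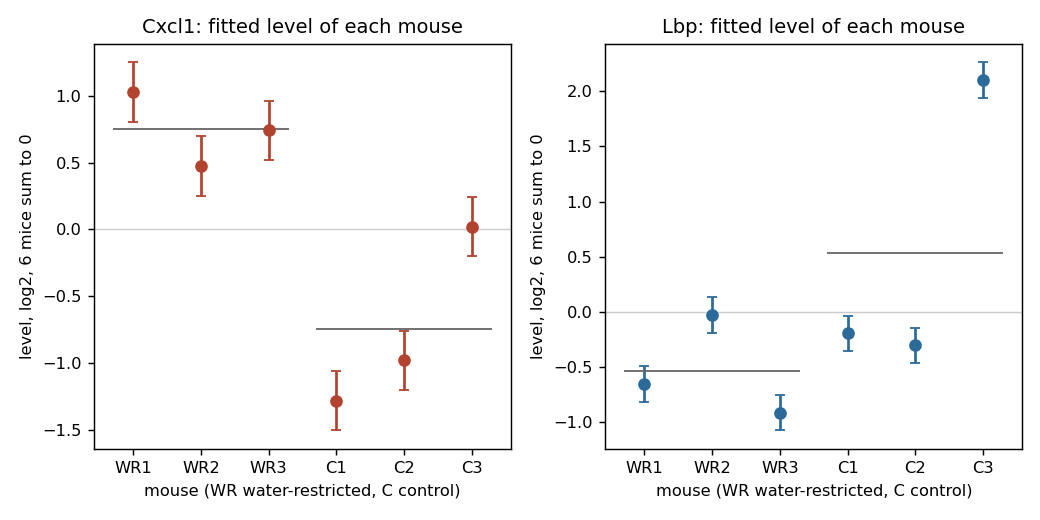
Fitted log2 level of each mouse for Cxcl1 (left) and Lbp (right), water-restricted mice before control mice, with bars for the technical SE and grey lines for the group means. Cxcl1 has its 3 water-restricted mice between 0.47 and 1.03, above the control mice, and Lbp has 1 mouse far from the rest, control mouse 3 at 2.10.

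Lbp marked a single mouse. Against control mouse 3 the turned log2 ratio of Lbp was -2.64 and -3.29 for water-restricted mouse 1, -1.60 for mouse 2 and -3.34 for mouse 3. Against control mouse 1 it was -0.57 for water-restricted mouse 1, -0.08 and -0.14 for mouse 2 and -0.32 for mouse 3. Against control mouse 2 it was -0.02 for water-restricted mouse 1, 0.02 for mouse 2 and -0.60 and -0.76 for mouse 3. By these means of both spots, the arrays with control mouse 3 did not overlap the other 8, and each of the 3 water-restricted mice showed the shift. Single spots did overlap, with -0.58 for water-restricted mouse 2 with control mouse 3 and -1.51 for mouse 3 with control mouse 2. The sign was negative on 11 of 12 arrays, but on the 8 arrays without control mouse 3 the ratio averaged -0.31 ± 0.30 (SD over arrays that share mice).

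The spots of the Lbp clone agreed less well than those of Cxcl1, with a median gap of 0.38 and a gap over 1 on 2 arrays. On the array of water-restricted mouse 2 with control mouse 3 the spots read -2.61 and -0.58, which pulled its mean towards 0. The other was water-restricted mouse 3 in Alexa Fluor 647 with control mouse 2, where the first spot read -1.51 and the second -0.02. The first spot alone read -2.61, -3.07, -2.61 and -3.18 on the 4 arrays with control mouse 3, close together across water-restricted mice and dyes. The level of control mouse 3 was 2.30 from the first spots and 1.91 from the second. Clones printed next to Lbp had smaller values on those 4 arrays, where Lbp averaged -2.72. The clone before it, annotated as Dnmt3a, averaged -0.01. The next clones after it lay partly on the same side, with Dop1a at -0.34, against -0.12 and -0.15 on the arrays with control mice 1 and 2, and Zfp654 at -0.50, against -0.08 and -0.23.

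The fitted Lbp levels were -0.65, -0.03 and -0.92 in water-restricted mice 1, 2 and 3, and -0.20, -0.31 and 2.10 in control mice 1, 2 and 3. Each had a technical SE of 0.16. Control mouse 3 stood 2.13 (SE 0.24) from its nearest neighbour, water-restricted mouse 2, while the widest other step between neighbours was 0.35 (SE 0.24). As for Cxcl1, these steps are a description and no test. The 3 control mice spanned 2.41 on the log2 scale, a 5.30-fold ratio, and 14 of the 6786 genes had a wider span. The group means were -0.53 ± 0.46 in water-restricted and 0.53 ± 1.36 in control mice (SD, n = 3 each). Their difference of -1.07 (SE 0.59) rested on control mouse 3, and without that mouse it was -0.28 (SE 0.23).

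Set side by side, both members had control mouse 3 at the top of the control mice on the turned scale, but differed in the rest of their pattern. Cxcl1 had 0.02 in control mouse 3 against -0.98 and -1.28 in the other control mice, and Lbp had 2.10 against -0.31 and -0.20. The water-restricted mice lay above all control mice for Cxcl1, while for Lbp control mice 1 and 2 lay among the water-restricted mice. In the group difference they took opposite signs, 1.49 and -1.07, under either reading of the ratio. The Lbp difference rested on control mouse 3, and without that mouse it was -0.28 (SE 0.23). Of all genes, 16.8% had control mouse 3 at the same end of the 6 levels as Lbp, which is the high end if Alexa Fluor 546 is the numerator and the low end if not, and 11.7% had it at the opposite end.

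**Figure D3:**
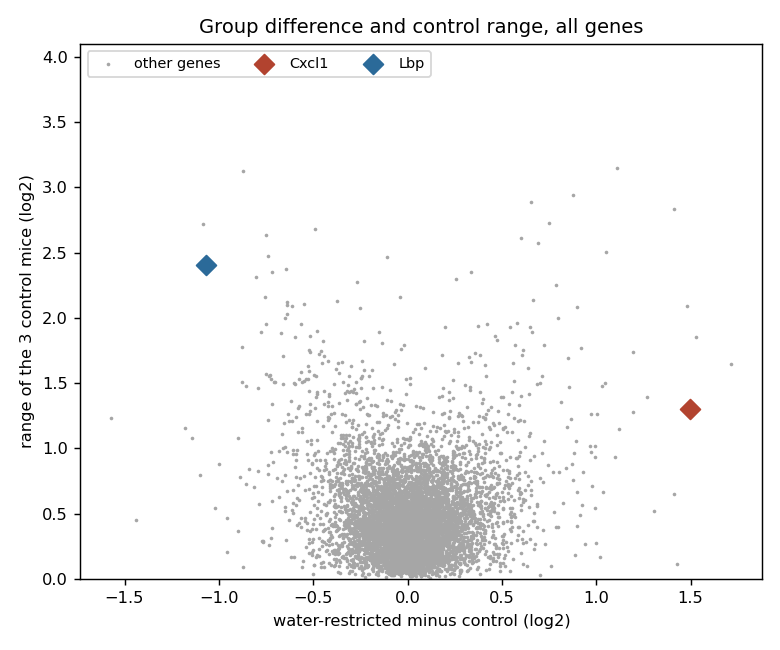
Log2 difference of mouse levels, water-restricted minus control (horizontal), and range of the 3 control levels (vertical) for all 6786 genes, with Cxcl1 and Lbp as diamonds. Cxcl1 lies far to the right (1.49) with a control range of 1.30, and Lbp lies to the left (-1.07) near the top of the cloud with a range of 2.41.

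A dye effect, which played no part in choosing the genes, did not pass for either member. The dye term was -0.24 (SE 0.15, limma adjusted p = 0.301) for Cxcl1 and -0.17 (SE 0.11, limma adjusted p = 0.323) for Lbp, where 11.3% of all genes passed. Of the list genes named below, the dye term passed for Cxcl12, Cxcr4, Myd88, Irak2, Nfkbiz, Ikbkb, Gatm, Krt18, Krt7 and Krt19. By orientation, the Cxcl1 difference was 1.38 over the 6 arrays that had Alexa Fluor 546 on the water-restricted side and 1.68 over the 6 swapped ones. For Lbp these values were -1.20 and -1.02. Both genes kept their sign in either set of 6 arrays, which adds no support, since they were picked with these values known.

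Other genes of the chemokine system did not follow Cxcl1. Of 38 listed CXC and CC chemokines 4 were measured, and the 3 others were all negative, with a median difference of -0.26 where the median of all genes was 0.00. By limma 0 of them passed, as did 0 of the 6786 genes (0%), of which 337 (4.97%) had an unadjusted p under 0.05, none of these 3 chemokines among them. A fit with random mouse effects called 99 genes (1.46%). Cxcl12, which keeps leukocytes and progenitors in place through Cxcr4, had -0.20, 0.17 and -1.04 as its levels in water-restricted mice 1, 2 and 3, against 0.52, -0.17 and 0.72 in control mice 1, 2 and 3, so that the groups overlapped. Its difference was -0.71 (SE 0.34, limma adjusted p = 0.996), and its own dye term passed at 0.55 (limma adjusted p = 0.0161). Ccl27a, a chemokine for skin-homing T cells, had -0.26 (SE 0.26). Ppbp, a platelet chemokine that lies 4 protein-coding genes from Cxcl1 in the same chromosomal cluster, had -0.01 (SE 0.19). The nearer cluster genes Cxcl2, Cxcl3, Cxcl15 and Pf4 were not measured. Of 22 chemokine receptors Cxcr4 and the scavenging receptor Ackr3 were measured, at 0.15 (SE 0.16) and 0.06 (SE 0.19), and Cxcr2, the receptor of Cxcl1, was not.

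The route from lipopolysaccharide to NF-kappaB likewise lay near 0. Of 26 listed genes of lipopolysaccharide recognition and Toll-like receptor signalling 9 were measured, Lbp among them, and Tlr4, Cd14 and Ly96 were not. Of the 8 others, 2 were positive and 6 negative, with a median of -0.05 and a range from -0.12 to 0.26, and 0 passed by limma or had an unadjusted p under 0.05. Myd88, the adaptor of most Toll-like receptors, had -0.10 (SE 0.19), and Tirap, which brings Myd88 to Tlr4, had -0.06 (SE 0.15). Ticam1, the adaptor of the other Tlr4 branch, had -0.03 (SE 0.19). The kinases Irak1 and Irak2 had 0.11 (SE 0.15) and -0.05 (SE 0.23), and the ubiquitin ligase Traf6 had -0.12 (SE 0.15). Tollip, an inhibitor of the pathway, had the largest value, 0.26 (SE 0.16), and the alarm protein Hmgb1 had -0.05 (SE 0.16). In control mouse 3, where Lbp reached 2.10, these 8 genes averaged -0.01, within the -0.03 to 0.02 of the other 5 mice.

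Of 24 listed NF-kappaB genes 10 were measured, 7 positive and 3 negative, with a median of 0.04 and 0 past the threshold by limma. The largest were Nfkbia, the inhibitor that NF-kappaB induces against itself, at 0.45 (SE 0.27) and its nuclear relative Nfkbiz at 0.29 (SE 0.16), followed by the kinase Ikbkb at -0.22 (SE 0.28) and the adaptor Bcl10 at 0.17 (SE 0.19). Nfkbia had 0.80 in water-restricted mouse 3 and -0.10 and -0.02 in mice 1 and 2, against -0.54, 0.04 and -0.18 in control mice 1, 2 and 3, so its value came mainly from 1 mouse. Of 30 interleukin and TNF ligands, receptors and downstream genes 6 were measured, 3 on each side, from -0.15 (Il6st, the shared interleukin 6 receptor subunit) to 0.20 (Il17ra, the interleukin 17 receptor). Stat3, which carries the interleukin 6 signal to acute phase genes, had 0.09 (SE 0.26).

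Other acute phase proteins had smaller values than Lbp, and in control mouse 3 their mean level, but not every gene, was on the same side. Of 29 listed genes 7 were measured, Lbp among them, and of the other 6, 1 was positive and 5 were negative, with a median of -0.05 and 0 past the threshold. The list was not sorted by which genes rise or fall in an acute phase response. Its signs and means are therefore only a description. Ttr, or transthyretin, had -0.30 (SE 0.20), the protease inhibitor A2m -0.20 (SE 0.25), the fibrinogen chain Fga -0.07 (SE 0.17) and Lcn2, a siderophore-binding protein and kidney injury marker, 0.03 (SE 0.28). Lcn2 stood at -0.41, 0.36 and 0.10 in water-restricted mice 1, 2 and 3 and at -0.06, -0.47 and 0.49 in control mice 1, 2 and 3. Its top level was thus in control mouse 3, but close to that of water-restricted mouse 2. Over the 6 genes the mean level was 0.15 in control mouse 3, the top of the 6 mice, where the water-restricted mice ran from -0.13 to -0.00 and control mice 1 and 2 had -0.01 and 0.00. Cp, the copper-binding ceruloplasmin, was also at its top there, at 0.26, while Lbp had 2.10. Only these 2 of the 6 genes, Lcn2 and Cp, had their top level in control mouse 3, and A2m had -0.11 there. Liver transcripts, which share genes such as Ttr and Fga with this list, averaged 0.01 in control mouse 3 over 5 genes. That was within the -0.09 to 0.07 of the other mice.

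**Figure D4:**
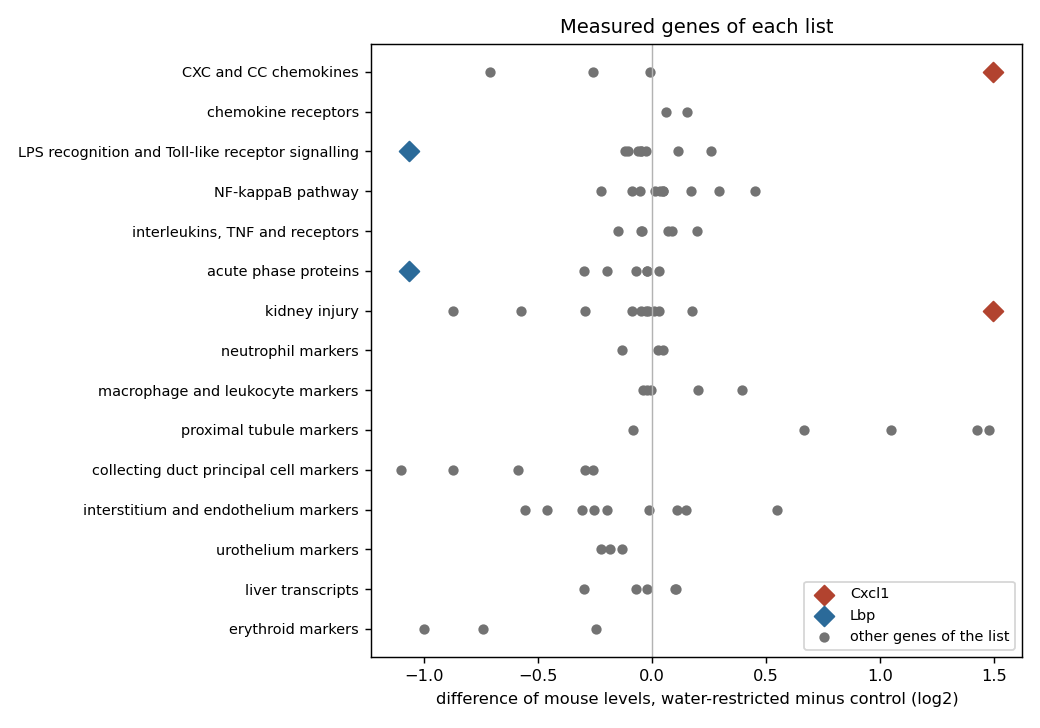
Log2 difference of mouse levels, water-restricted minus control, for each measured gene of the inflammatory and cell type lists, with circles for the other genes and diamonds for Cxcl1 and Lbp. Cxcl1 (1.49) and Lbp (-1.07) lie outside the other measured genes of their own lists, and the proximal tubule markers reach similar values (median 1.05).

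The few measured markers of neutrophils, which Cxcl1 is known to attract, had differences near 0. Of 15 neutrophil markers 3 were measured. S100a9, a calcium-binding protein abundant in neutrophils, had 0.03, the granule protein Ltf 0.05 and the growth factor receptor Csf3r -0.13. Their mean level ran from -0.03 to 0.01 in the water-restricted mice and from -0.09 to 0.14 in the control mice. Of 20 macrophage and leukocyte markers 5 were measured, with mean levels from 0.01 to 0.08 in the water-restricted mice and from -0.15 to 0.05 in the control mice. The largest was the lysozyme gene Lyz2 at 0.40 (SE 0.22).

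Markers of kidney cell types had group differences as large as that of Cxcl1. Of 20 proximal tubule markers 5 were measured, 4 positive and 1 negative, with a median of 1.05. By limma 0 passed and 3 had an unadjusted p under 0.05. Gatm, which makes the creatine precursor, had 1.48 (SE 0.52), Miox, the inositol oxygenase, 1.43 (SE 0.32) and the endocytic receptor Lrp2 1.05 (SE 0.35). The groups overlapped for Gatm, with 0.65 in control mouse 1 and 0.49 in water-restricted mouse 2, and its dye term passed at -0.32 (limma adjusted p = 0.0164). The mean level of the 5 markers ran from 0.39 to 0.54 in the water-restricted mice and from -0.92 to 0.22 in the control mice. Control mice 1, 2 and 3 had 0.22, -0.92 and -0.66 there, where Cxcl1 had -1.28, -0.98 and 0.02. Of 18 principal cell markers 5 were measured, all negative with a median of -0.59, with 3 at an unadjusted p under 0.05 and 0 past the threshold by limma. Their mean ran from -0.33 to -0.28 in the water-restricted mice and from 0.11 to 0.51 in the control mice. The part of these differences in tissue composition in the Cxcl1 value was not tested.

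Of 20 kidney injury genes 11 were measured, and apart from Cxcl1 3 were positive and 7 negative, with a median of -0.04. The keratin Krt18 had -0.87 (SE 0.19, limma adjusted p = 0.553) and the calcium-binding protein S100a6 had -0.57 (SE 0.19), opposite in sign to Cxcl1. By limma 0 passed and 2 had an unadjusted p under 0.05. Krt18 is also among the principal cell markers, whose measured genes were all negative. Its dye term passed at 0.56 (limma adjusted p = 0.0114). All 3 measured of 11 urothelial markers, Krt7, Krt19 and Upk1a, had control mouse 3 at the same end as Lbp (high or low with the numerator dye), and their mean level ran from -0.26 to 0.07 over the water-restricted mice, against -0.27, 0.06 and 0.48 in control mice 1, 2 and 3. Of all genes, 16.8% had control mouse 3 at that end. By mean level 7 of the 15 lists with measured genes had it there, and some of these lists share genes. The lead of control mouse 3 over the next mouse was largest for the urothelial markers, at 0.41, followed by 0.24 for chemokines. Apart from the urothelial markers, the mean levels of these lists in control mouse 3 were as follows. The values there were 0.51 for principal cell markers, 0.49 for chemokines, 0.42 for erythroid markers, 0.21 for kidney injury genes, and 0.15 for both acute phase proteins and interstitial markers, in each case without Cxcl1 and Lbp. Erythroid markers, 3 of 7 measured, ran from -0.66 to -0.13 in the water-restricted mice and from 0.25 to 0.42 in the control mice. Interstitial and endothelial markers, 9 of 19 measured, ran from -0.19 to 0.04 in the water-restricted mice and from -0.04 to 0.15 in the control mice, and 0 of 13 thick and thin limb markers were measured. The part of these markers in the Lbp level was not tested. Ratios do not give absolute levels, so the labelled tissue could not be checked by the presence of its markers.

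The genes most like each member were found by correlation over the 12 arrays after the mean of each dye orientation was taken out, which removes the group difference itself. These are descriptions, and the arrays share mice. For Cxcl1 they were Pabpc4, a poly(A)-binding protein (r = 0.85), Tubgcp2, of the gamma-tubulin complex (r = 0.84), Ifngr2, an interferon gamma receptor chain (r = 0.83), Tmem254a (r = 0.83) and Fam199x (r = 0.82), and 12 genes had r above 0.8. For Lbp they were Fam199x (r = 0.94), the polarity kinase Mark2 (r = 0.94), Utp15, of ribosomal RNA processing (r = 0.92), the nuclear protein Banp (r = 0.91) and Strada, a partner of the kinase Stk11 (r = 0.91), and 31 genes had r above 0.8. Lbp itself ranked 47 of 6785 for Cxcl1, at 0.73. The 5 genes named for Cxcl1 all had group differences opposite in sign to its 1.49, from -0.12 for Pabpc4 to -1.09 for Fam199x. Each of them had its top level in control mouse 3, where Cxcl1 ranked 4 among the 6 mice. Their likeness to Cxcl1 is thus one of variation between arrays and not of group difference.

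Fam199x came near to Lbp in size. Its levels were -0.71, -0.39 and -0.53 in water-restricted mice 1, 2 and 3, and -0.41, -0.27 and 2.31 in control mice 1, 2 and 3. The other 4 genes named for Lbp had 0.14 to 0.31 in control mouse 3, far less than the 2.10 of Lbp, so a high correlation did not mean an equal level. Over the 6 mouse levels, a measure chosen after the values were seen, Cxcl1 and Lbp correlated at -0.15.

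**Figure D5:**
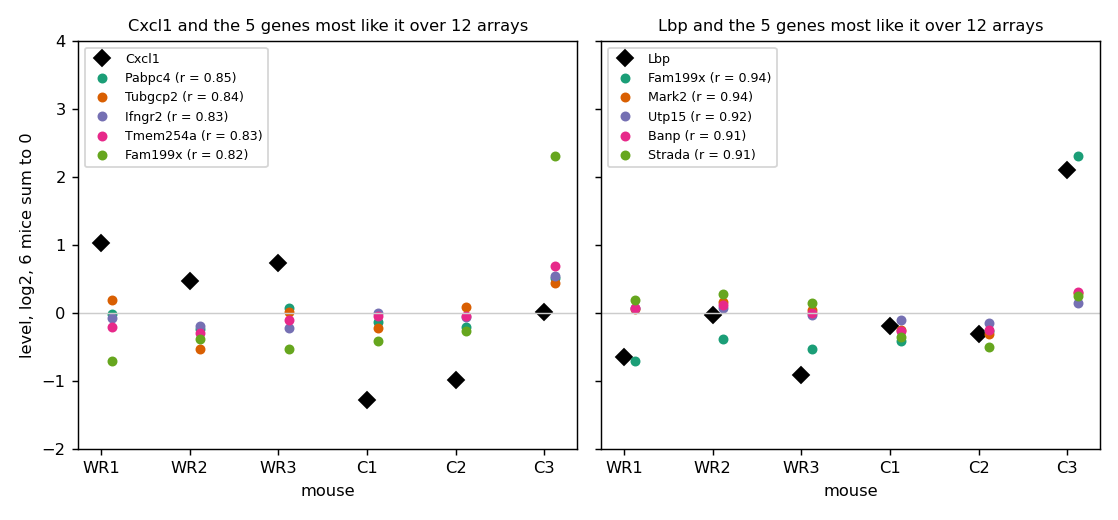
Fitted log2 levels of Cxcl1 and Lbp and of the 5 genes most like each, in water-restricted mice 1 to 3 and then control mice 1 to 3. Fam199x and Lbp both stand above 2 in control mouse 3 (2.31 and 2.10).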

How the data were processed

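The 12 arrays of 31200 spots were used as the authors deposited them, as ratios per spot taken to be log2. The sources used here do not give the background correction, normalization, log base or numerator dye. Array medians lay between -0.04 and 0.06. Spots of a clone were averaged, and of 15600 clones 9191 had 1 gene, 254 several and 6155 none. Clones with the same gene were averaged, giving 6786 genes named through Entrez identifiers in RefSeq GRCm38.p6. The sign was turned on arrays where Alexa Fluor 647 marked the water-restricted mouse. Weighted least squares (weight 0.5 for each array of a swapped pair) gave a level per mouse and a dye term. Levels of 3 against 3 mice were compared with limma 3.58.1 in R 4.3.3, adjusted by Benjamini-Hochberg over all genes at 0.05. Technical SEs cover array error only, and the number of arrays limits the precision. The genes named were the members, the 5 most like each, and all measured genes of the chemokine, receptor and lipopolysaccharide lists. From the other lists they were taken from the 4 with the largest absolute difference, but not all of these were named. Cp and the clones printed next to Lbp were named apart from this rule. The members and lists were chosen with earlier results of these data known. Levels of same-numbered mice of both groups correlated at r = -0.01, -0.54 and -0.11. This cannot decide whether the numbers paired mice, since the levels come from arrays that compare these same mice. The main fit used no pairing. Alternatives were other scalings, spots, dye orientations, weights, left-out mice and arrays, a replicate block and random mouse effects.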

Additional observations from a re-analysis of the deposited data

How the results depend on the processing

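The Cxcl1 difference was positive in 22 of 23 alternatives (-0.24 to 2.21) and the Lbp difference negative in 24 of 24 (-1.49 to -0.17). Scale normalization without the noisy array was counted for the Lbp difference only. The Cxcl1 difference was also computed in that setting, but it was left out of the count and is not given here. The alternatives share arrays, and some, such as no dye term or a replicate block, left the difference unchanged. These counts are therefore a description and no test. With no sign turned, Cxcl1 had -0.24, its control range was 0.74 and that of Lbp 0.51, by the construction of that setting, which mixes both dye orientations. With control mouse 3 and the noisy array (water-restricted mouse 2 with control mouse 2) left out, chosen after the data were seen, the Cxcl1 difference was 2.21, its control range 0.36 and the Lbp control range 0.0307. The Lbp control range was 2.76 with scale normalization, 2.84 with that and the noisy array left out, and 2.77 when the array pairing water-restricted mouse 2 with control mouse 3 was left out. The Cxcl1 dye term turned to 0.10 with scale normalization and without the noisy array, and the cause was not tested.

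Leaving out each mouse in turn gave 1.23 to 1.88 for the Cxcl1 difference, -1.49 to -0.28 for the Lbp difference, 0.30 to 1.64 for the Cxcl1 control range and 0.11 to 2.73 for that of Lbp. With a replicate block the differences were 1.49 (SE 0.31) and -1.07 (SE 0.61), with 0 genes past the threshold. By limma 0 genes passed (337 at an unadjusted p under 0.05), 0 without each mouse in turn, 1 with the Alexa Fluor 647 orientation alone, 1 with the swapped pairs alone, 468 with arrays taken as replicates and 99 with random mouse effects.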
